A study of Mus musculus with 11 samples.

Results

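Cyclin-dependent kinase (CDK) inhibitors are the proteins that hold back the kinases of the cell cycle, and their 8 genes in the mouse were read out here in blood stem cells and in a progenitor population downstream of them. The genes were chosen by name, as the rows of the deposited gene table whose symbol is Cdkn1a, Cdkn1b, Cdkn1c, Cdkn2a, Cdkn2b, Cdkn2c, Cdkn2d or Cdkn3, and they are 8 of 54347 genes in that table. Long-term haematopoietic stem cells (LT-HSCs) gave 4 EMCN+ and 3 EMCN- RNA libraries, and granulocyte-monocyte progenitors (GMPs) gave 4. The animals were 4 female C57BL/6NTac mice, whose bone marrow was sorted, with no genetic change or treatment given in the labels, nor an age. LT-HSCs were sorted as CD150+CD48- cells within the lineage-depleted fraction high for Sca-1 and c-Kit and split by the sialomucin endomucin (EMCN), and each library is the sorted population of 1 mouse. No EMCN- library of mouse 3 was analysed here, and the submitters state that 1 EMCN- replicate was left out for poor library quality.

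As background, the inhibitors fall into families by what they bind. The CIP/KIP proteins p21 (Cdkn1a), p27 (Cdkn1b) and p57 (Cdkn1c) bind complexes of cyclins with CDKs, while the INK4 proteins p16 (Cdkn2a), p15 (Cdkn2b), p18 (Cdkn2c) and p19 (Cdkn2d) bind the D-cyclin kinases CDK4 and CDK6. Cdkn3 encodes a phosphatase that removes the activating phosphate from CDK2, and its transcript is high in dividing cells. In mouse bone marrow p57 and p27 are known for keeping stem cells out of the cycle, and Cdkn1c is an imprinted gene read from the maternal copy.

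The libraries held 3.63 to 11.1 M (1e6) estimated counts, and levels are given as counts per M counts (CPM) scaled by TMM factors. The label of the sort was set against marker genes. The 10 LT-HSC markers summed to 1670 to 2000 CPM in EMCN+ LT-HSCs and 1320 to 1530 CPM in the EMCN- fraction, against 160.0 to 221 CPM in GMPs. In GMPs 132 to 192 CPM of this came from Kit. The 9 GMP markers summed to 22.4 to 28.0, 20.9 to 30.9 and 15700 to 18900 CPM in the same groups. In bulk RNA, fewer cells that express a gene and less RNA of it per cell cannot be told apart.

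The inhibitor transcripts of LT-HSCs were led by Cdkn1c, Cdkn1b and Cdkn2d. In EMCN+ LT-HSCs Cdkn1c had the highest level per length, with 22.9 ± 2.92 CPM per kb of transcript (SD, n = 4), followed by Cdkn1b with 16.7 ± 1.36 and Cdkn2d with 10.5 ± 1.78 CPM per kb, and the ranges of these 3 genes did not overlap. In EMCN- LT-HSCs Cdkn1b came first, with 20.2 ± 0.321 CPM per kb (n = 3), ahead of Cdkn1c with 12.5 ± 2.48 and Cdkn2d with 10.1 ± 1.23. There the range of Cdkn1b stood apart, while those of Cdkn1c and Cdkn2d overlapped. In GMPs the order was Cdkn1b with 10.4 ± 0.41, Cdkn3 with 10.1 ± 2.0, Cdkn2d with 6.38 ± 1.04 and Cdkn2c with 4.93 ± 1.72 CPM per kb (n = 4). The ranges of Cdkn1b and Cdkn3 overlapped in GMPs, as did those of Cdkn2d and Cdkn2c. Cdkn2c and Cdkn3 lay low in both LT-HSC fractions, at 2.01 ± 0.85 and 1.63 ± 0.72 CPM per kb in EMCN+ and 2.52 ± 1.08 and 3.26 ± 1.43 CPM per kb in EMCN- LT-HSCs, with overlapping ranges. Cdkn1a was the lowest of the tested genes in both, at 0.552 ± 0.235 CPM per kb in EMCN+ and 0.208 ± 0.181 CPM per kb in EMCN- LT-HSCs. With the union of exons as the length the means were lower and the 3 leading genes of each LT-HSC fraction kept their order, with 14.4, 10.6 and 7.5 CPM per kb for Cdkn1c, Cdkn1b and Cdkn2d in EMCN+ and 7.83, 12.9 and 7.25 CPM per kb in EMCN- LT-HSCs.

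**Figure D1:**
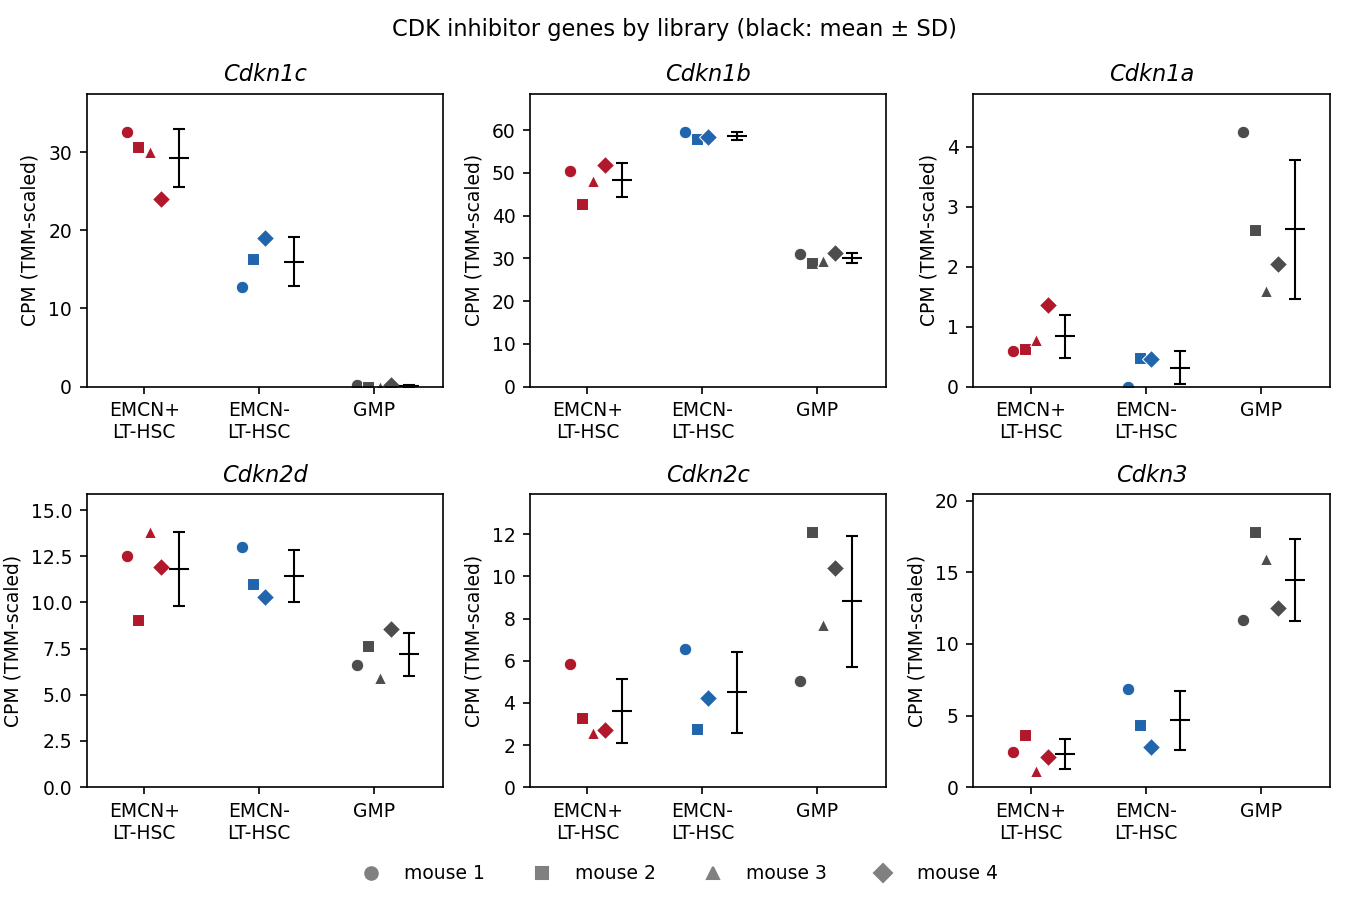
CPM (TMM-scaled, linear axis from 0) of the 6 inhibitor genes that passed the low-count filter, 1 point per library with the symbol marking the mouse, and the group mean ± SD in black. Cdkn1c lies between 24.0 and 32.6 CPM in EMCN+ LT-HSCs, between 12.7 and 19.0 CPM in EMCN- LT-HSCs and at 0 to 0.186 CPM in GMPs, while Cdkn3 is highest in GMPs.

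As a share of the summed level of all 8 genes per kb, Cdkn1c made up 42.2 ± 4.06% of the inhibitor transcripts in EMCN+ LT-HSCs, 25.7 ± 5.51% in EMCN- LT-HSCs and 0.208 ± 0.24% in GMPs. Cdkn1b took 30.8 ± 2.84%, 41.4 ± 0.666% and 31.1 ± 3.51%, and Cdkn2d took 19.3 ± 2.84%, 20.7 ± 2.0% and 19.0 ± 2.36% in the same order. Cdkn3 took 3.03 ± 1.43%, 6.64 ± 2.74% and 30.0 ± 4.67%. The 3 CIP/KIP genes together made up 74.0 ± 1.39% in EMCN+ LT-HSCs and 67.5 ± 6.29% in EMCN- LT-HSCs, against 36.6 ± 5.75% in GMPs. The summed level of the 8 genes was 54.3 ± 3.9 CPM per kb in EMCN+ LT-HSCs, 48.8 ± 1.58 in EMCN- LT-HSCs and 33.5 ± 3.16 in GMPs. These shares and sums are a description and were not tested.

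**Figure D2:**
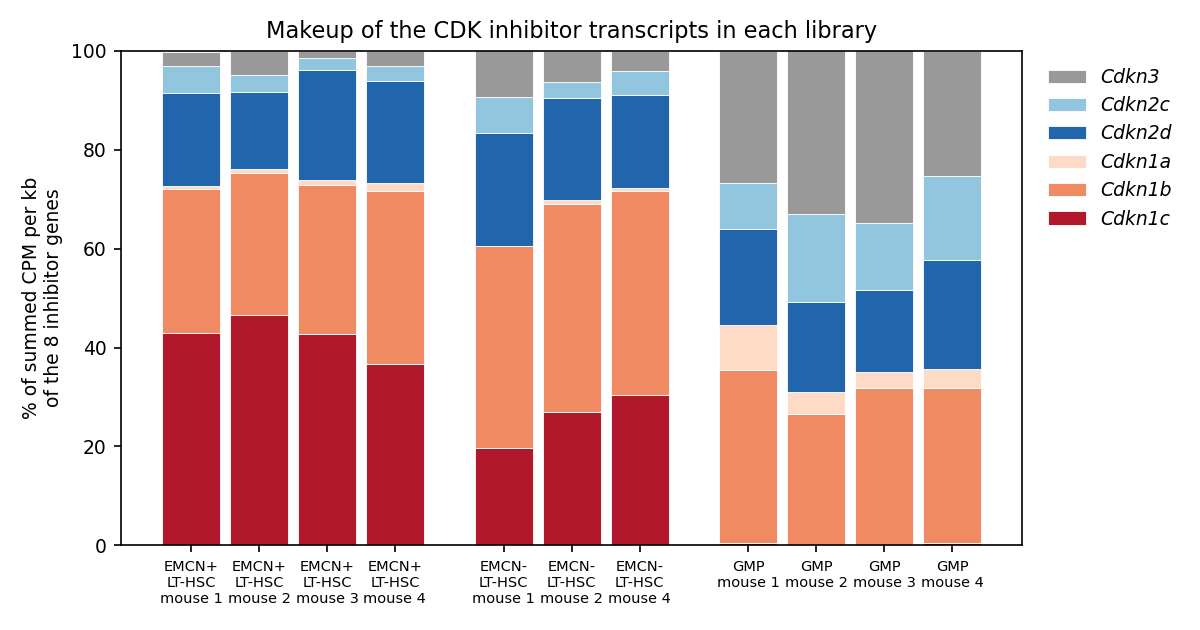
Share of each inhibitor gene in the summed CPM per kb of the 8 genes, in percent, as 1 stacked bar per library. Cdkn1c fills 36.7 to 46.5% of the bars of EMCN+ LT-HSCs and 19.7 to 30.5% of those of EMCN- LT-HSCs, and Cdkn3 fills 25.3 to 34.9% of the bars of GMPs. Cdkn2a and Cdkn2b are too low to be seen, with at most 0.119%.

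The first comparison, EMCN+ over EMCN-, addressed how stem cells with endomucin on their surface differ from those without it. Of the 8 inhibitor genes 6 passed the low-count filter and 1 of them, Cdkn1c, was called higher in EMCN+ LT-HSCs by edgeR's quasi-likelihood test with Benjamini-Hochberg adjustment over 14915 genes, while 0 were called lower. In this comparison 1.96% of all genes tested were called, with 0.771% higher and 1.19% lower in EMCN+ LT-HSCs. With a term for mouse, fitted to the 3 mice that had both fractions, 908 genes were called in place of 293, and Cdkn1c was again the inhibitor called.

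Cdkn1c (ENSMUSG00000037664.13) lies on chromosome 7 from 143458339 to 143461050 on the minus strand in GRCm38. It had 32.6, 30.6, 30.0 and 24.0 CPM in the EMCN+ libraries of mice 1, 2, 3 and 4, against 12.7, 16.3 and 19.0 CPM in the EMCN- libraries of mice 1, 2 and 4. The fractions did not overlap, and every EMCN+ library lay above every EMCN- library, as it did for 7.19% of all genes tested. Cdkn1c rose in EMCN+ LT-HSCs by 0.89 ± 0.20 (SE) on the log2 scale (edgeR adjusted p = 0.0264), a fold of 1.85. Within mice the log2 CPM difference was 1.35 in mouse 1, 0.90 in mouse 2 and 0.33 in mouse 4, so the size of the difference varied between animals and its direction did not. The direction was kept in all 22 alternatives, at 0.74 to 1.02, and the call was lost without EMCN+ replicate 1 (adjusted p = 0.0636), 2 (0.106) or 3 (0.0537) or EMCN- replicate 1 (0.204) or 2 (0.0755). A noncoding transcript on the opposite strand, Gm44732, overlaps Cdkn1c and had 10 counts over all libraries.

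Marker sums of the fractions were set beside this difference. The 10 LT-HSC markers had a positive log2 change, 4 of them called, with a median of 0.62, against 0 over all genes tested. Over all genes tested 0.771% were called higher. The 5 megakaryocyte markers summed to 25 to 40.7 CPM in the EMCN+ and 68.0 to 106 CPM in the EMCN- fraction. Itga2b stood at 14.1 to 25.3 against 46.5 to 71.1 CPM and Pf4 at 1.78 to 4.74 against 11.1 to 18.8 CPM, while Gp1ba, Gp9 and Ppbp overlapped. The 6 erythroid markers summed to 16.4 to 20.2 CPM in EMCN+ LT-HSCs, with 12.8 to 18.2 CPM from Hbb-bt, while the EMCN- sum was 10.3 to 12.6 CPM, with 5.34 to 6.44 CPM from Hbb-bt. The 7 endothelial markers summed to 95.8 to 123 CPM in EMCN+ and 92.1 to 101 CPM in EMCN- libraries, and 0 of the 4 tested were called by edgeR, DESeq2 or limma-voom, with 1 at an unadjusted p under 0.05. Their log2 differences were 0.83 for Kdr, 0.26 for Tek, 0.22 for Stab2 and -0.06 for Pecam1. Of the 3 below the filter, Cdh5 stood at 0.556 to 0.988 in EMCN+ against 0 to 0.305 CPM in EMCN- libraries, Cldn5 at 0.691 to 2.34 against 0 CPM, and Plvap at 0 to 0.444 against 0.152 to 1.13 CPM. B cell markers summed to 7.79 to 11.7 against 6.56 to 13.9 CPM, and T cell markers to 0.195 to 1.38 against 0.161 to 0.937 CPM. Their part in the difference of Cdkn1c was not tested.

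Cdkn1b (ENSMUSG00000003031.14), on chromosome 6 from 134920401 to 134925513, had 50.4, 42.8, 48.2 and 51.8 CPM in EMCN+ LT-HSCs, against 59.6, 57.8 and 58.3 CPM in EMCN- LT-HSCs. Every EMCN+ library lay below every EMCN- library, as for 7.03% of all genes tested. The log2 difference of -0.28 ± 0.11 did not pass (edgeR adjusted p = 0.248, 0.127 to 0.594 over 22 alternatives), and the within-mouse differences were -0.24, -0.43 and -0.17. Cdkn1c per kb was set against Cdkn1b per kb in the same library, a ratio that transcript length enters but no library scaling factor. It stood at 1.39 ± 0.242 in EMCN+ LT-HSCs (1.05 to 1.62, n = 4) and 0.621 ± 0.13 in EMCN- LT-HSCs (0.483 to 0.74, n = 3). So per kb Cdkn1c exceeded Cdkn1b in each EMCN+ library and lay under it in each EMCN- library. The order in EMCN+ LT-HSCs rests on the lengths used, 1276 bases for Cdkn1c and 2901 for Cdkn1b. In CPM, without division by length, Cdkn1c lay below Cdkn1b in every library.

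The other tested inhibitors did not pass between the fractions. Cdkn3 had 2.47, 3.62, 1.11 and 2.14 CPM in the EMCN+ and 6.86, 4.35 and 2.81 CPM in the EMCN- fraction, with overlapping groups and a log2 difference of -0.98 ± 0.36 (edgeR adjusted p = 0.201, 0.134 to 0.706 over the alternatives). The highest value among the LT-HSC libraries was that of EMCN- replicate 1, which also had the highest summed level of 18 mitosis genes, 925 CPM, against 423 to 815 CPM in the EMCN+ and 578 and 599 CPM in the other EMCN- libraries. Cdkn1a had 6, 9, 7 and 7 counts in EMCN+ libraries and 0, 3 and 2 counts in EMCN- libraries, and its log2 difference of 1.37 ± 0.85 did not pass (edgeR adjusted p = 0.511). Cdkn2c averaged 3.59 ± 1.52 CPM in the EMCN+ and 4.5 ± 1.93 CPM in the EMCN- fraction, and Cdkn2d 11.8 ± 2.01 and 11.4 ± 1.38 CPM. Their log2 differences of -0.31 ± 0.39 and 0.04 ± 0.22 had edgeR adjusted p values of 0.797 and 0.963.

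**Figure D3:**
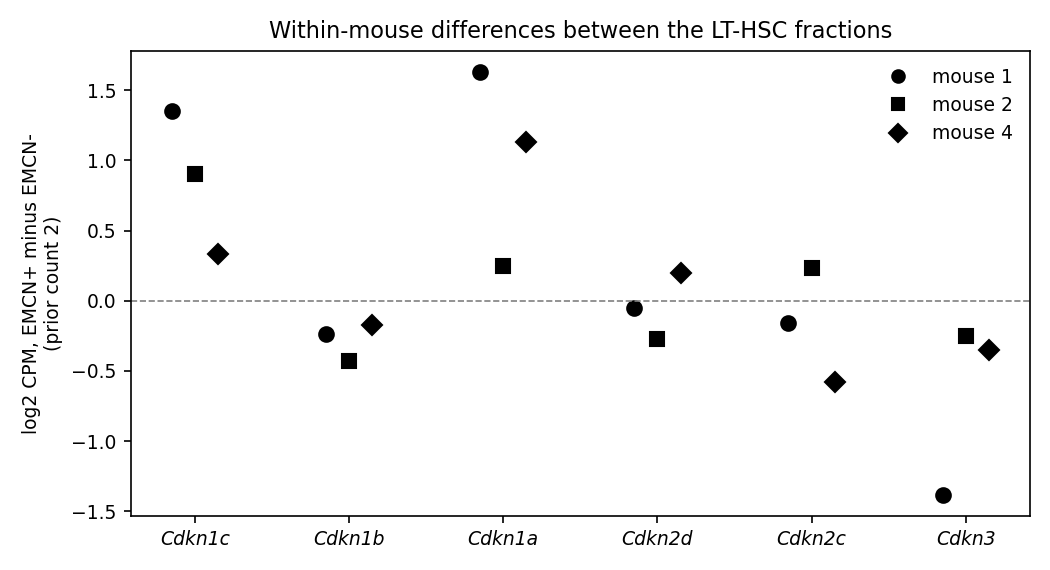
Difference in log2 CPM (prior count 2), EMCN+ minus EMCN- LT-HSCs of the same animal, for the 3 mice with both fractions. Cdkn1c lies above 0 in mice 1, 2 and 4 (0.33 to 1.35), Cdkn1b below 0 (-0.43 to -0.17) and Cdkn3 below 0 (-1.38 to -0.25), Cdkn1a lies above 0 on 0 to 9 counts a library, while Cdkn2d and Cdkn2c lie on both sides.

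GMPs served as the more differentiated population, and both LT-HSC fractions were compared with the same 4 GMP libraries. In each comparison the 6 tested inhibitors were called, 3 higher in LT-HSCs (Cdkn1c, Cdkn1b and Cdkn2d) and 3 lower (Cdkn3, Cdkn2c and Cdkn1a). Calls were common here, with 61.3% of all genes tested called for EMCN+ LT-HSCs against GMPs and 52.7% for EMCN- LT-HSCs against GMPs, so that a call alone sets the inhibitors little apart. By direction 31.9% of genes were higher and 29.4% lower in EMCN+ LT-HSCs, and 28.3% higher and 24.4% lower in EMCN- LT-HSCs. Groups without overlap were as common, with every library above GMPs for 29.5% and below for 27.7% of genes in EMCN+, and 28.7% and 25.8% in EMCN- LT-HSCs. Cdkn1c reached the level of the filter in the 7 LT-HSC libraries and no GMP library, and Cdkn1a in 3 GMP libraries, 1 EMCN+ library and no EMCN- library. The filter thus favoured a difference for these genes, and their calls are no support for one.

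Cdkn1c was all but absent from GMPs, with 1, 0, 0 and 1 counts in the 4 libraries. Over the groups it had 1163 counts in EMCN+ LT-HSCs and 265 in EMCN- LT-HSCs, against 2 in GMPs. This gave a ratio of 335 for EMCN+ LT-HSCs over GMPs (exact 95% interval 92.5 to 2770) and of 173 for EMCN- LT-HSCs over GMPs (47.5 to 1440), intervals that cover counting error only. The edgeR adjusted p values were 1.66e-13 and 7.51e-12.

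Cdkn1b and Cdkn2d were present in stem cells and GMPs alike, at a higher level in stem cells. Cdkn1b had 30.9, 28.8, 29.3 and 31.3 CPM in GMPs, and every library of either LT-HSC fraction lay above them. It rose by 0.68 ± 0.11 on the log2 scale in EMCN+ LT-HSCs (edgeR adjusted p = 1.31e-05) and by 0.96 ± 0.12 in EMCN- LT-HSCs (adjusted p = 5.07e-07). Cdkn2d (ENSMUSG00000096472.2), on chromosome 9 from 21288410 to 21291407, had 12.5, 9.04, 13.8 and 11.9 CPM in the EMCN+ and 13.0, 11 and 10.3 CPM in the EMCN- fraction, against 6.61, 7.65, 5.91 and 8.57 CPM in GMPs. No LT-HSC library reached down to the GMP libraries. Cdkn2d rose by 0.71 ± 0.21 in EMCN+ LT-HSCs (edgeR adjusted p = 0.00676) and by 0.67 ± 0.23 in EMCN- LT-HSCs (adjusted p = 0.0202). The second call was lost with mouse as a block in complete pairs (adjusted p = 0.0881), without a low-count filter (0.0501), and without EMCN- replicate 1 (0.0914) or GMP replicate 3 (0.0525).

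Cdkn3, Cdkn2c and Cdkn1a were lower in stem cells than in GMPs. Cdkn3 (ENSMUSG00000037628.10), on chromosome 14 from 46760541 to 46771669, reached 11.7, 17.8, 15.9 and 12.5 CPM in GMPs, above each LT-HSC library. It fell by 2.58 ± 0.33 on the log2 scale in EMCN+ LT-HSCs (edgeR adjusted p = 7.81e-07) and by 1.59 ± 0.35 in EMCN- LT-HSCs (adjusted p = 0.000666). Cdkn2c (ENSMUSG00000028551.14), on chromosome 4 from 109660876 to 109667189, had 5.83, 3.27, 2.55 and 2.73 CPM in the EMCN+ and 6.56, 2.74 and 4.22 CPM in the EMCN- fraction, against 5.04, 12.1, 7.72 and 10.4 CPM in GMPs. The groups overlapped, with the libraries of mouse 1 the highest of each LT-HSC fraction and the lowest of the GMPs. Within mouse 1 Cdkn2c was higher in LT-HSCs, with log2 CPM differences of 0.20 (EMCN+) and 0.36 (EMCN-), and within mice 2 and 4 it was lower, with -1.80 and -1.83 (EMCN+) and -2.03 and -1.25 (EMCN-). Cdkn2c fell by 1.27 ± 0.35 in EMCN+ LT-HSCs (edgeR adjusted p = 0.00373) and by 0.96 ± 0.39 in EMCN- LT-HSCs (adjusted p = 0.0455). The second call was lost in 11 of 22 alternatives, among them limma-voom (adjusted p = 0.0738), upper-quartile factors (0.0757), no robust dispersion (0.0572) and mouse as a block in complete pairs (0.112). It was also lost without EMCN+ replicate 2 (0.053), EMCN- replicate 2 (0.184) or 4 (0.107), or GMP replicate 2 (0.141), 3 (0.0532) or 4 (0.0973).

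The genes of mitosis, like Cdkn3 and Cdkn2c, were lower in stem cells than in GMPs. Of 18 mitosis genes 15 fell and 0 rose in EMCN+ LT-HSCs against GMPs, where 29.4% of all genes tested fell. In EMCN- LT-HSCs against GMPs 13 fell and 0 rose, where 24.4% of all genes tested fell. The medians of the 18 were -1.52 and -1.24, against 0.04 and 0.03 over all genes tested. Scaling by total counts left 8 and 6 of them lower and 0 higher, and mouse as a block in complete pairs left 9 lower in EMCN- LT-HSCs. Their summed level was 423 to 815 CPM in EMCN+ LT-HSCs and 578 to 925 CPM in the EMCN- fraction, against 1140 to 2090 CPM in GMPs. The GMP library with the lowest sum, that of mouse 1, was also the one lowest in Cdkn2c and Cdkn3. Other libraries did not match for Cdkn3. The GMPs of mouse 4 had a sum of 1840 CPM with 12.5 CPM of Cdkn3, and those of mouse 3 had 1280 with 15.9 CPM. EMCN+ replicate 1 had 815 with 2.47 CPM, and EMCN- replicate 2 had 578 with 4.35 CPM. Between the fractions 0 of the 18 were called by edgeR, DESeq2 or limma-voom, and 0 had an unadjusted p under 0.05. The log2 difference was negative for 17 and positive for 1, with a median of -0.23 against 0 over all genes tested. Markers of mature neutrophils summed to 1.38 to 2.34 CPM in the EMCN+ and 0.703 to 2.58 CPM in the EMCN- fraction, while GMPs had 115 to 515 CPM. The part of dividing cells or neutrophils in these differences was not tested.

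Cdkn1a (ENSMUSG00000023067.14), the p21 gene and a classical target of p53, lies on chromosome 17 from 29090976 to 29100727 and was scarce throughout. It had 0.593, 0.626, 0.777 and 1.36 CPM in the EMCN+ and 0, 0.483 and 0.468 CPM in the EMCN- fraction, against 4.25, 2.61, 1.59 and 2.05 CPM in GMPs. Every LT-HSC library lay below every GMP library, and the counts behind these values were 0 to 9 in LT-HSCs and 7 to 27 in GMPs. AC167363.2, which overlaps it on the opposite strand, had 5 counts in all. It fell by 1.70 ± 0.63 in EMCN+ LT-HSCs (edgeR adjusted p = 0.0235) and by 3.06 ± 0.82 in EMCN- LT-HSCs (adjusted p = 0.0036). The first call was lost without a low-count filter (adjusted p = 0.0514) and without EMCN+ replicate 1 (0.0557) or 2 (0.0633) or GMP replicate 1 (0.0877).

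The TMM factors of LT-HSC and GMP libraries differed, and scaling by total counts moved the median gene to 0.863 for EMCN+ and 0.751 for EMCN- LT-HSCs against GMPs. It gave 8973 higher and 1877 lower genes in place of 4760 and 4386 for EMCN+ LT-HSCs, and 8209 and 1473 in place of 4222 and 3637 for EMCN- LT-HSCs. No inhibitor turned its direction. With that scaling the log2 changes in EMCN+ LT-HSCs were 1.51 for Cdkn1b, 1.53 for Cdkn2d, -1.74 for Cdkn3, -0.43 for Cdkn2c (edgeR adjusted p = 0.293) and -0.89 for Cdkn1a (adjusted p = 0.206). In EMCN- LT-HSCs they were 1.68, 1.39, -0.86, -0.22 (adjusted p = 0.646 for Cdkn2c) and -2.38. The calls of Cdkn2c in both fractions and of Cdkn1a in EMCN+ LT-HSCs were thus lost with total-count scaling. Between the LT-HSC fractions the median moved to 0.11, and 161 genes were higher and 50 lower in place of 115 and 178.

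**Figure D4:**
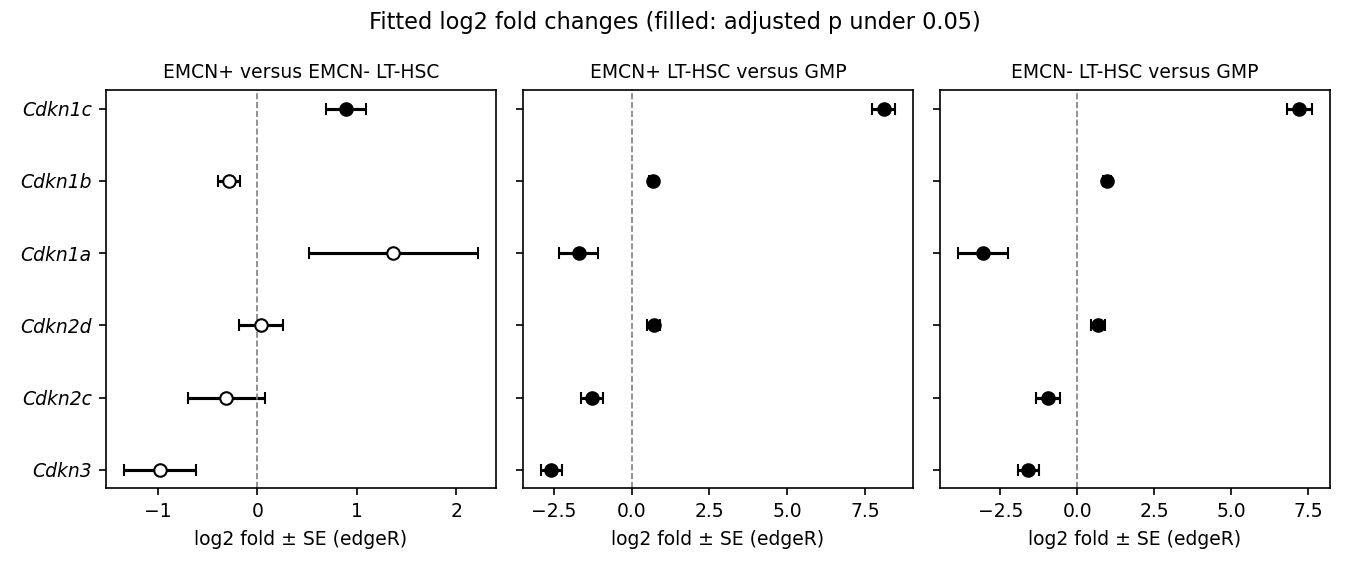
edgeR log2 fold changes ± SE of the 6 tested inhibitor genes in the 3 comparisons, on separate linear axes, with filled points for an adjusted p under 0.05. Only Cdkn1c is filled in the left panel (0.89), and all 6 genes are filled against GMPs, where the fitted values of 8.10 and 7.21 for Cdkn1c rest on 2 GMP counts and depend on the prior count.

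The locus of the INK4 genes Cdkn2a and Cdkn2b, known for its rise in senescent and aged cells and for its silencing by Polycomb proteins, gave almost no reads. Cdkn2a (ENSMUSG00000044303.6), from which both p16 and ARF are made, lies on chromosome 4 from 89274471 to 89294653, and Cdkn2b (ENSMUSG00000073802.5) from 89306299 to 89311039. Both are on the minus strand, 11646 bases apart. Cdkn2a had 0 counts in all 11 libraries, and Cdkn2b had 1 count, in EMCN+ replicate 1. For Cdkn2a a count of 0 over a group, taken as up to 3 counts, allows up to 0.0776 CPM in EMCN+ LT-HSCs, 0.176 CPM in EMCN- LT-HSCs and 0.135 CPM in GMPs. The limits of 0.176 and 0.135 CPM hold for Cdkn2b as well, and its 1 count was worth 0.0988 CPM in that EMCN+ library. Bmi1, the Polycomb gene known in mice for repressing this locus, stood at 74.3 ± 5.71 CPM in the EMCN+ and 65.4 ± 4.36 CPM in the EMCN- fraction, against 45.6 ± 6.6 CPM in GMPs. It was named for that role and not by the rule for named genes, and it rose by 0.70 ± 0.11 and 0.52 ± 0.12 against GMPs (edgeR adjusted p = 1.71e-05 and 0.00125). Ezh2, also a Polycomb gene, fell by 1.28 ± 0.11 and 0.73 ± 0.12 against GMPs (edgeR adjusted p = 1.65e-09 and 2.12e-05). Its second call was lost with total-count scaling (0.988). The Polycomb genes Cbx7 and Rnf2 had the sign of Bmi1. Any part of these genes in the silence of the locus was not tested.

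The promoters of 3 inhibitors whose LT-HSC and GMP libraries did not overlap, Cdkn1b and Cdkn2d higher and Cdkn3 lower in LT-HSCs, are shown from RefSeq (GRCm38.p6), 250 bases before to 50 after the start of the gene. Capitals mark CCAAT boxes (CCAAT on either strand), bound by the factor NF-Y, and the core TTTGAA of the cell cycle homology region on either strand, an element known from genes of mitosis. The sequences are those of Cdkn1b (chr6:134920151-134920450, plus strand), Cdkn2d (chr9:21291160-21291459, minus strand) and Cdkn3 (chr14:46760291-46760590, plus strand).
Cdkn1b: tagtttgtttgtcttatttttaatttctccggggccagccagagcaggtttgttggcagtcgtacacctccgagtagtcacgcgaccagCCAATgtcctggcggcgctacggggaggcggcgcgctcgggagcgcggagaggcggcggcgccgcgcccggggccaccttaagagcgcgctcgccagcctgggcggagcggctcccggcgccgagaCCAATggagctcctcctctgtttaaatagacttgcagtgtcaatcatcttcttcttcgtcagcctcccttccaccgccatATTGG
Cdkn2d: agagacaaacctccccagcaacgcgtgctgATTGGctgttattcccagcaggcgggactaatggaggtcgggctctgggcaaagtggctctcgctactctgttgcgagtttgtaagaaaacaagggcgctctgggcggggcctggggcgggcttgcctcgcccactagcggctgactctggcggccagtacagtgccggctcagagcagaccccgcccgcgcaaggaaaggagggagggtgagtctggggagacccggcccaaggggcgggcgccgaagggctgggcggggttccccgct
Cdkn3: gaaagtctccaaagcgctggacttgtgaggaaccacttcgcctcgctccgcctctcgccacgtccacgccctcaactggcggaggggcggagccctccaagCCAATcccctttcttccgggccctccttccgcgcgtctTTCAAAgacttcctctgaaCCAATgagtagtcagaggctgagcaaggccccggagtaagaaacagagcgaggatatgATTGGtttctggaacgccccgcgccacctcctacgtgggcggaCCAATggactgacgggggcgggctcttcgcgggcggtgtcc
The Cdkn3 promoter held 4 CCAAT boxes and 1 TTTGAA, the Cdkn1b promoter 3 CCAAT boxes and no TTTGAA, and the Cdkn2d promoter 1 CCAAT box and no TTTGAA. At least 1 CCAAT is found in 37.4% and at least 1 TTTGAA in 17.9% of 32851 promoters of the same length. The GC box GGGCGG, which does not overlap with either, occurred 4 times in Cdkn3, 5 times in Cdkn2d and 1 time in Cdkn1b, and is found in 35.7% of promoters. Of the 8 genes 7 had a promoter in the table, all but Cdkn1c. Among those not printed, Cdkn1a also did not overlap between LT-HSCs and GMPs, and its promoters held no CCAAT box and no TTTGAA. Cdkn2b, with 1 count over all libraries, held 1 TTTGAA, while the promoters of Cdkn2c and Cdkn2a held none. The motifs thus do not sort the members by direction. The motifs were chosen after the sequences were seen, and a match is a run of letters and not a measured site.

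The kinases and cyclins that the inhibitors bind are the next step of the pathway. Of 13 genes 12 were tested, and between the fractions 2 were lower and 0 higher in EMCN+ LT-HSCs. Over all genes tested 1.19% were called lower and 0.771% higher there. These were the kinase gene Cdk6, at 108 ± 17.9 against 200 ± 43.5 CPM (edgeR adjusted p = 0.00217), and the cyclin gene Ccne2, at 7.91 ± 1.83 against 17.1 ± 4.61 CPM (adjusted p = 0.00402, and 0.0647 without EMCN- replicate 1). The paired fit by mouse called Cdk4 lower too (-0.38, edgeR adjusted p = 0.0231), and without a low-count filter Ccnb2 was (-0.68, 0.0137). Over all genes these settings called 908 and 529 between the fractions, in place of 293. Against GMPs the 12 were called, beside 61.3% of all genes tested for EMCN+ and 52.7% for EMCN- LT-HSCs. In each LT-HSC fraction 3 rose and 9 fell, with medians of -1.81 for EMCN+ and -1.37 for EMCN- LT-HSCs. The 3 that rose were the D cyclins, the partners of CDK4 and CDK6. Ccnd2 stood at 370 ± 23.2 CPM in the EMCN+ and 310 ± 10.7 CPM in the EMCN- fraction, against 128 ± 12.6 CPM in GMPs. Ccnd1 stood at 29.9 ± 2.91 and 22.5 ± 1.55 CPM, against 5.07 ± 4.12 CPM in GMPs. Among the genes that fell, Cdk6 had 511 ± 20.5 CPM and Ccne2 82.3 ± 6.47 CPM in GMPs. Cdk4 fell by 0.86 ± 0.11 in EMCN+ LT-HSCs (edgeR adjusted p = 1.13e-06), a call lost with scaling by total counts (0.839). That scaling left 7 lower in EMCN+ and 4 lower in EMCN- LT-HSCs, with 3 higher in each.

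Further down, the pocket proteins bind the E2F factors until CDKs phosphorylate them. Of 13 such genes 0 were called between the LT-HSC fractions by edgeR, DESeq2 or limma-voom, with 4 at an unadjusted p under 0.05. Against GMPs 3 rose and 6 fell in EMCN+ LT-HSCs, and 3 rose and 4 fell in EMCN- LT-HSCs. In total these counts lie near the 61.3% and 52.7% of all genes tested that were called there, and so set the list little apart. By direction 29.4% and 24.4% of all genes tested fell. With mouse as a block in complete pairs 1 was called between the fractions, the pocket protein gene Rbl1, at -0.37 (edgeR adjusted p = 0.038) in place of -0.34 ± 0.12 (0.182), and without a low-count filter E2f8 was called (0.0254). Over all genes these settings called 908 and 529 between the fractions, in place of 293. Scaling by total counts turned the split against GMPs to 7 higher and 3 lower in EMCN+ and 7 higher and 2 lower in EMCN- LT-HSCs. Rbl2, the pocket protein gene of resting cells, stood at 126 ± 10.6 CPM in the EMCN+ and 115 ± 3.64 CPM in the EMCN- fraction, against 55.4 ± 3.06 CPM in GMPs. E2f8 stood at 15.7 ± 4.07 and 23.1 ± 7.84 CPM, against 87.8 ± 6.12 CPM in GMPs.

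Of 22 tested genes that regulate transcription of the inhibitors, 1 rose and 1 fell in EMCN+ against EMCN- LT-HSCs. Over all genes tested 0.771% rose and 1.19% fell there. Gfi1, a repressor known to act on Cdkn1a, rose by 1.45 ± 0.23 (edgeR adjusted p = 0.00217), and the Polycomb methyltransferase gene Ezh2 fell by 0.55 ± 0.12 (adjusted p = 0.0144). The call of Ezh2 was lost when total counts set the scale (adjusted p = 0.128), and without EMCN+ replicate 2 (0.0586) or EMCN- replicate 1 (0.13) or 4 (0.0714). In the paired fit by mouse 4 regulators were called higher and 2 lower, with Foxo1 (0.63), Egr1 (0.48) and Smad3 (0.37) gained as higher and Myc (-0.41) as lower (edgeR adjusted p = 0.0287, 0.0142, 0.0364 and 0.0127). That fit called more genes in general, with 380 higher and 528 lower of 13435, in place of 115 and 178 of 14915. Against GMPs 13 rose and 5 fell in EMCN+ LT-HSCs and 11 rose and 4 fell in EMCN- LT-HSCs, with medians of 0.55 and 0.41. Of all genes tested 31.9% rose and 29.4% fell in EMCN+, and 28.3% rose and 24.4% fell in EMCN- LT-HSCs. Foxo3, a forkhead factor known to activate Cdkn1b, stood at 203 ± 26.1 CPM in the EMCN+ and 193 ± 7.16 CPM in the EMCN- fraction, against 59.2 ± 3.4 CPM in GMPs. Foxo1 stood at 27.9 ± 1.82 and 17.9 ± 4.52 CPM, against 4.26 ± 1.09 CPM in GMPs. Gfi1 had its highest level in GMPs, at 49.2 ± 6.21 CPM, against 10.2 ± 1.33 CPM in the EMCN+ and 3.79 ± 1.26 CPM in the EMCN- fraction.

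Of 14 genes for the turnover of the inhibitor proteins 0 were called between the fractions by edgeR, DESeq2 or limma-voom, with 3 at an unadjusted p under 0.05. Against GMPs 2 rose and 8 fell in EMCN+ LT-HSCs and 1 rose and 7 fell in EMCN- LT-HSCs. In total these counts too lie near the 61.3% and 52.7% of all genes tested that were called there. By direction the list leaned lower, where 29.4% and 24.4% of all genes tested fell. Its medians were -0.56 and -0.41, against 0.04 and 0.03 over all genes tested. With mouse as a block in complete pairs 1 was called between the fractions, Pcna, whose product is the platform for the destruction of p21, at -0.41 (edgeR adjusted p = 0.0125) in place of -0.40 ± 0.12 (0.095). Pcna was also called without EMCN+ replicate 1 (0.0285), and Cks2 without a low-count filter (0.0145). Over all genes these 3 settings called 908, 338 and 529 between the fractions, in place of 293. Total counts as the scale gave 6 higher and 5 lower in EMCN+ and 7 higher and 3 lower in EMCN- LT-HSCs. Cks1b, a cofactor of the ligase that marks p27 for destruction, stood at 10.2 ± 1.31 CPM in the EMCN+ and 10.2 ± 4.07 CPM in the EMCN- fraction, against 51.8 ± 7.16 CPM in GMPs. Its relative Cks2 stood at 10.4 ± 3.43 and 15.8 ± 4.73 CPM, against 127 ± 19.4 CPM in GMPs.

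The imprinted domain around Cdkn1c holds the noncoding RNA gene Kcnq1ot1, whose transcript silences the paternal copies of its neighbours. Of 10 listed genes of the domain 8 were tested. Between the fractions 0 were called by edgeR, DESeq2 or limma-voom, with 2 at an unadjusted p under 0.05. Cd81 had the smallest p, at 100 ± 3.58 CPM in EMCN+ against 81.2 ± 4.36 CPM in EMCN- LT-HSCs (log2 difference 0.30 ± 0.10, edgeR adjusted p = 0.154). Tspan32, chosen after its values were seen, had a p close to it and the opposite sign, at 87.7 ± 3.5 against 108 ± 2.44 CPM (-0.30 ± 0.10, edgeR adjusted p = 0.158). Against GMPs 3 rose in EMCN+ and 4 in EMCN- LT-HSCs, and 0 fell. These counts include Phlda2 and Slc22a18, which had 0 and 2 counts in GMPs and so passed the filter through the LT-HSC libraries. Of all genes tested 61.3% and 52.7% were called in the same comparisons, so the domain shows no excess of calls. Scaling by total counts gave 7 and 6 higher, and a filter of 5 CPM in 3 libraries left 1 and 2 higher. Phlda2, which like Cdkn1c is read from the maternal copy, had 90 counts in EMCN+ and 49 counts in EMCN- LT-HSCs, against 0 in GMPs. It was at least 17.3-fold higher in EMCN+ and at least 21.3-fold higher in EMCN- LT-HSCs, taking 3 counts over the GMP libraries. Slc22a18 had 73 counts in EMCN+ LT-HSCs and 54 in EMCN- LT-HSCs, against 2 in GMPs, with ratios of 21 (exact 95% interval 5.62 to 177) and 35.3 (9.31 to 299). Kcnq1ot1 itself, named as the silencer of the domain and not by the rule, stood at 144 ± 28.6 CPM in the EMCN+ and 146 ± 52.0 CPM in the EMCN- fraction, against 168 ± 54.5 CPM in GMPs, and did not pass in any comparison (edgeR adjusted p = 0.996, 0.54 and 0.608).

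**Figure D5:**
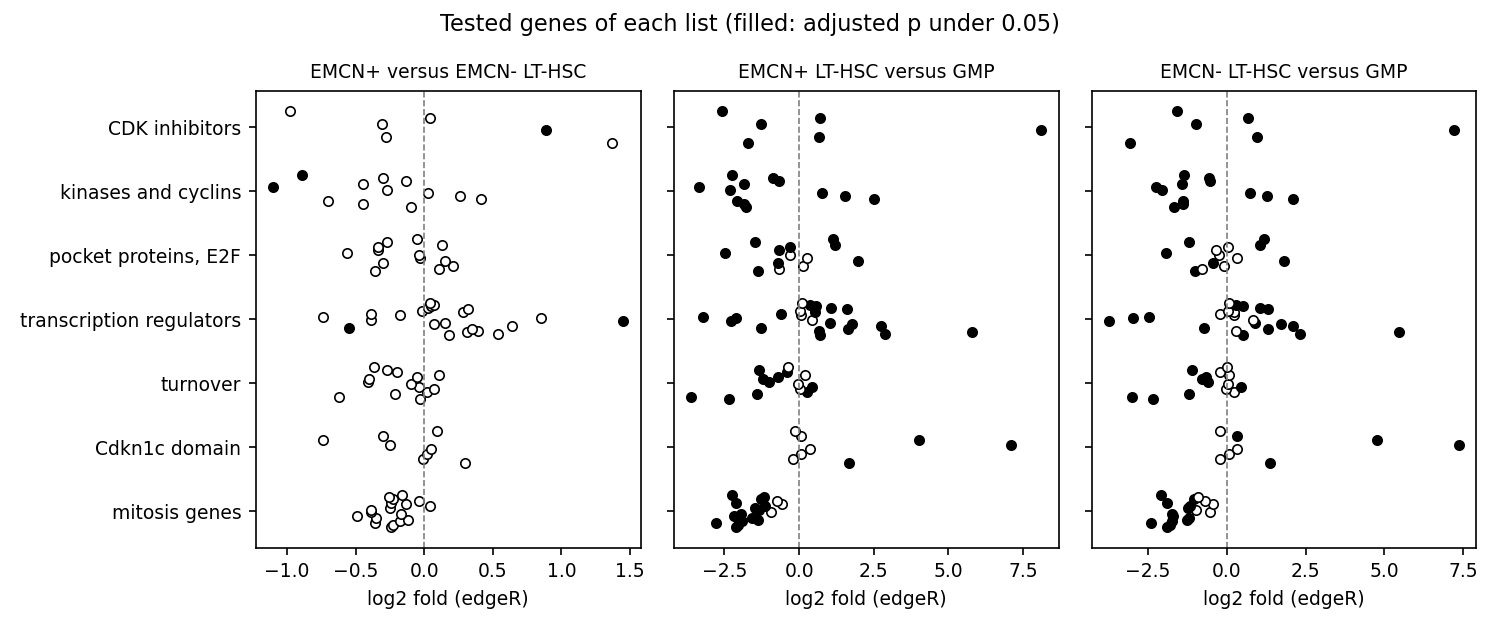
edgeR log2 fold changes of the tested genes of 7 lists in the 3 comparisons, 1 point per gene, filled for an adjusted p under 0.05. Of the mitosis genes 0 are filled between the LT-HSC fractions and 15 and 13 against GMPs, each to the left of 0, while Cdkn1c is the filled inhibitor in the left panel.

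The genes most like each inhibitor over the 11 libraries were found by the root mean square difference between log2 CPM profiles, each centred on its own mean, among 9940 genes with a mean of at least 5 CPM. For Cdkn1c they were Sgsm1 (0.27), Tcf15 (0.29) and Abcg3 (0.31), and Tcf15, a transcription factor gene known from quiescent stem cells, had 17.6 CPM in the EMCN+ and 12.1 CPM in the EMCN- fraction, against 0 CPM in GMPs. For Cdkn1b they were Pla2g4a (0.10), Acadm (0.12) and Appbp2 (0.13), for Cdkn2d AW549877, Stx17 and Rnf11 (0.13 each), and for Cdkn1a B3gnt8 (0.39), Vsir (0.41) and Prkcb (0.46). Cdkn2c was nearest to Kif11 (0.19), Esco2 (0.21) and Kif20a (0.21), of which Kif11 and Kif20a encode motor proteins of mitosis. Cdkn3 was nearest to E2f8 (0.31) and to the histone genes H2ac15 (0.33) and H2bc6 (0.34), whose near-identical copies make the assignment of their reads uncertain.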

How the data were processed

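The authors deposited estimated counts for each gene. The submitters' processing notes name cutadapt and Salmon. The versions, genome build, annotation and the step from transcripts to genes are not given in the sources used here, so whether counting used strand is not known. The deposited estimated counts are whole numbers and were rounded as a safeguard. Symbols came from the table, and coordinates and transcript lengths from GENCODE M21 (GRCm38), matched by identifier. The length of a gene was the mean of its protein-coding transcripts.

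Genes were filtered by group with filterByExpr (minimum count 10), which left 14915 genes. A single edgeR 4.0.16 fit in R 4.3.3 took all 11 libraries, using robust quasi-likelihood and TMM scaling without a block for mouse. Adjusted p values are Benjamini-Hochberg over all genes tested, with a threshold of 0.05, and log2 CPM used a prior count of 2. The 11 libraries came from 4 mice, so libraries of different groups share animals, while replicates within a group came from separate mice. Replicates of a group differed beyond sampling (chi-square per degree of freedom 8.09 to 33.6). No molecular identifiers were used, and limits at 0 counts hold for counting error alone.

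The labels' mouse number pairs libraries of the same animal. Deviations from the group means correlated at 0.165 to 0.223 for same-mouse LT-HSC pairs. Same-mouse values were 0.105 to 0.15 for EMCN- with GMP and -0.0606 to 0.0613 for EMCN+ with GMP. Pairs from different mice gave -0.246 to 0.19, -0.168 to 0.0622 and -0.172 to 0.16 in the same order.

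Besides all 8 inhibitors, up to 3 called genes per direction with the smallest p were open to naming in each list and comparison, or 1 where none was called, and not all of these are described. The inhibitors, lists and rules were chosen with earlier results of these data known. Alternatives were RLE, upper-quartile and total-count scaling, 2 other filters, DESeq2 1.42.0, limma-voom (limma 3.58.1), no robust dispersion, mouse as a block, 2 groups alone and each library left out. The fit was tested on simulated data in which 200 genes were changed. Between the fractions it recovered 23.9% of 1.5-fold, 49.3% of 2-fold and 72.7% of 4-fold changes. A difference that did not pass can thus still be present. False calls were 3 of 100 between the fractions, and 9 of 99 for EMCN+ and 7 of 110 for EMCN- LT-HSCs against GMPs.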

Additional observations from a re-analysis of the deposited data

How the results depend on the processing

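The count of all genes called between EMCN+ and EMCN- LT-HSCs, 293, was 529 without a low-count filter, 451 with DESeq2, 908 with mouse as a replicate block in complete pairs, and 55 to 338 with 1 library left out. Leaving out EMCN- replicate 1 gave the lowest count, and 105 and 184 were called when EMCN+ replicates 2 and 4 were dropped, 194 and 191 for EMCN- replicates 2 and 4. The number of inhibitor genes called there was 1 in each alternative that kept all libraries or complete pairs, and 0 to 1 with a library left out. Against GMPs it stayed within 1.5 times of 6, except that 3 (Cdkn1b, Cdkn1c and Cdkn3) were called for EMCN- LT-HSCs with the block in complete pairs, where Cdkn1a did not pass the filter. Apart from that, the block changed no call of an inhibitor. The small difference of Cdkn2d between the fractions turned to -0.03 with limma-voom, -0.06 with the block in complete pairs, -0.04 without EMCN+ replicate 3 and -0.02 without EMCN- replicate 4 (-0.04 to 0.16 over the libraries left out). That of Cdkn2c turned to 0.09 without EMCN- replicate 1 (-0.65 to 0.09). The cause was not tested. Cdkn1a could not be tested under each alternative, since some filters removed it. Depth limits Cdkn2a and Cdkn2b, with 0 and 1 counts over all libraries, for which no comparison was made.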

Other observations

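Lockd, a noncoding RNA gene that the deposited table describes as lying downstream of Cdkn1b, was looked at after its values were seen. It starts 3579 bases beyond the end of Cdkn1b on the same strand, on chromosome 6 from 134929092 to 134956798 in GRCm38. Lockd had 9.78, 7.93, 7.22 and 7.6 CPM in EMCN+ LT-HSCs and 12.5, 10.3 and 12.4 CPM in the EMCN- fraction, against 14.8, 32.4, 18.9 and 25.7 CPM in GMPs. Every library of either LT-HSC fraction lay below every GMP library, while Cdkn1b lay above in both. The first holds for 27.7% of all genes tested in EMCN+ and 25.8% in EMCN- LT-HSCs. Lockd fell by 1.49 ± 0.22 on the log2 scale in EMCN+ LT-HSCs (edgeR adjusted p = 5.39e-06) and by 0.97 ± 0.24 in EMCN- LT-HSCs (adjusted p = 0.0019). So with TMM scaling the neighbours went in opposite directions between stem cells and GMPs. The alternatives were not read out for Lockd. Total-count scaling moved the median gene to 0.863 for EMCN+ and 0.751 for EMCN- LT-HSCs against GMPs, which bears on the size of both falls. Between the fractions each EMCN+ library lay below each EMCN- library for both genes, as for 7.03% of all genes tested. For neither did the difference pass (Lockd -0.52 ± 0.24, edgeR adjusted p = 0.337).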
